A study of Mus musculus with 12 samples.

Results

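The cell proliferation genes described here are 45 genes of DNA replication and mitosis, measured in the forebrain of juvenile and adult mice. They were chosen by name, as the rows of the deposited expression table whose gene symbol is on the list, and all 45 were found, 1 row each, among 19268 genes. RNA was sequenced from males of the C57BL/6J strain, which were juvenile at P25 (day 25 after birth) or adult at P60 (day 60). The mice were wild type (WT) or homozygous for a deletion of exons 14 to 16 of Shank3 (knock-out, KO), a gene for a scaffold protein of excitatory synapses. The 4 groups are P25-WT, P25-KO, P60-WT and P60-KO, with 3 libraries of separate mice each. All groups share strain, sex and housing, and pups of different genotypes were raised together. The tissue was forebrain from which, by the study's account, the olfactory bulb had been left out. The deposited values are normalized counts, that is, reads assigned to a gene and scaled between libraries, so the sequencing depth is unknown and no counting interval can be given.

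A cell that divides first copies its DNA and then separates the copies. D-type cyclins act at the entry into the cycle, E2F factors then switch on genes for nucleotide synthesis and for the replication machinery, and a later wave of genes, driven in part by FOXM1, supplies the kinases, motors and degradation factors of mitosis. Most neurons of the forebrain have left the cycle for good before birth. In the juvenile and adult forebrain the dividing cells are chiefly oligodendrocyte precursors, together with progenitors of the subventricular zone and of the dentate gyrus and, at a low rate, glia and vascular cells. Many proteins of the list also work outside division, for example in DNA repair, so transcripts of some members are present in tissue with few dividing cells.

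The libraries were checked against their labels before the members were read. Shank3 itself (ENSMUSG00000022623) was at 10401, 11683 and 10254 normalized counts in P25-WT, 4891, 4901 and 5729 in P25-KO, 10310.0, 8936 and 10142 in P60-WT and 5186, 4535 and 5021 in P60-KO. All KO libraries were below all WT libraries at both ages, and the values count reads over the whole gene, exons outside the deletion included. The cerebellar granule cell genes Cbln3 and Gabra6 and the Purkinje cell gene Pcp2 stood at 624, 221 and 244 in P60-WT replicate 2 and at 138, 68.5 and 86.0 in P60-KO replicate 1, whereas no other library exceeded 27.5, 4.42 and 19.2. Counts of called members are therefore also given without either of these 2 libraries. The olfactory bulb genes Doc2g and Cdhr1 were detected in every library, at 163 to 419 and at 218 to 524. Across all genes, log2 values correlated at r = 0.982 to 0.988 between libraries of the same group and at 0.972 to 0.989 between groups. The labels name no sequencing batch.

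Promoters of this family carry well known elements. E2F sites are bound by E2F factors, the cell cycle genes homology region (CHR) is bound by the MuvB complexes that repress genes in resting cells and activate them before mitosis, and CCAAT boxes are bound by NF-Y. RefSeq promoter windows of GRCm38.p6, from 250 bases before to 30 bases after the annotated start, were at hand for 36 of the 45 members. Both strands were searched. An E2F core was a match to TTCCCGC or to TTCGCGC or to TTGCCGC or to TTGGCGC, a CHR was a match to TTTGAA or to TTCGAA, and a CCAAT box was a match to those 5 letters. The windows below belong to the 4 members with the smallest p among those lower at P60 and the 2 with the smallest p among those higher at P60, as far as a window was at hand, and they are shown so that the element content can be read beside the age differences that follow. Capitals mark every match to the searched letters, and each window is written 5′ to 3′ on the strand of its gene.
Ube2c: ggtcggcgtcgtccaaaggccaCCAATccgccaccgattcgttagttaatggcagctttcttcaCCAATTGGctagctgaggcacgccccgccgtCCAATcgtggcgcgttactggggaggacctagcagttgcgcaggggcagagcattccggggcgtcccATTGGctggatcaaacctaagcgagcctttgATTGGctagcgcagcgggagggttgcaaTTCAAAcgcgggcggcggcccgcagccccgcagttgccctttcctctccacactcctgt
Rrm2: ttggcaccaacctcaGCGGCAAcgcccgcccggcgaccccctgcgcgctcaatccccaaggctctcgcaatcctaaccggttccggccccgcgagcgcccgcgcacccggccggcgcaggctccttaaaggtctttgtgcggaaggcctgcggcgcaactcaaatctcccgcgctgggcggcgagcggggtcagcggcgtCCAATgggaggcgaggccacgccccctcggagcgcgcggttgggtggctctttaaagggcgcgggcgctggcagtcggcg
Top2a: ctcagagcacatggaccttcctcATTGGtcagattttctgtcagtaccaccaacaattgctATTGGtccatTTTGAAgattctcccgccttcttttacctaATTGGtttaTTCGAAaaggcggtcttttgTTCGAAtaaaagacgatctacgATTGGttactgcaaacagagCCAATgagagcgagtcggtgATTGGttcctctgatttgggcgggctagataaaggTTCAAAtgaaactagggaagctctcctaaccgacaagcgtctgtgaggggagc
Cdc20: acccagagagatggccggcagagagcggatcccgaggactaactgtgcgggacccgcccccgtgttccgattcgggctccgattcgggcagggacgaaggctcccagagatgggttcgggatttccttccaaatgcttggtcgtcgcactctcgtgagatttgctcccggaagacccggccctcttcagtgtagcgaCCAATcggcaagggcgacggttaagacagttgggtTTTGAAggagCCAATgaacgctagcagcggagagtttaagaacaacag
Smc2: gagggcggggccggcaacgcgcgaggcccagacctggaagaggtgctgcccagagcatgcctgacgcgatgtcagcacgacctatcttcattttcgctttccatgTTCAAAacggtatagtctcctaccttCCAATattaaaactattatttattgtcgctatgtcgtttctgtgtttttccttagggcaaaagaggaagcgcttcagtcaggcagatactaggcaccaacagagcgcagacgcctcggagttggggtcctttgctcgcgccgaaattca
Tk1: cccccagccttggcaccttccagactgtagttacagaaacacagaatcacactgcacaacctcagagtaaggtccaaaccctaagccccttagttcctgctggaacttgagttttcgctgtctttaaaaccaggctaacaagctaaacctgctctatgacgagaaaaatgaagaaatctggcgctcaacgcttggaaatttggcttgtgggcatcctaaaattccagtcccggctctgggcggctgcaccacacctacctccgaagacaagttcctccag

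The Ube2c window (chr2:164769679-164769958, plus strand) held 6 CCAAT boxes and 1 CHR match, and the Top2a window (chr11:99024160-99024439, minus strand) held 6 CCAAT boxes and 4 CHR matches. Cdc20 (chr4:118437314-118437593, minus strand) had 2 CCAAT boxes and 1 CHR match. Rrm2 (chr12:24708004-24708283, plus strand), a gene of the replication phase, had 1 E2F core and 1 CCAAT box and no CHR match. Smc2 (chr4:52438971-52439250, plus strand) had 1 CHR match and 1 CCAAT box, and Tk1 (chr11:117825985-117826264, minus strand) had none of the searched letters. Over the 36 member windows, 38.9% held an E2F core, 50% a CHR match, 77.8% a CCAAT box and 13.9% both an E2F core and a CHR match. Over all 13209 windows of genes in the table the shares were 14.7%, 13.5%, 37.3% and 1.66%. Among the 13 windows of members lower at P60 over both genotypes, the shares were 53.8% for the E2F core, 53.8% for the CHR and 92.3% for the CCAAT box. Among the 19 windows of members that were not called, they were 31.6%, 47.4% and 73.7%, and among the 4 windows of members called higher, 25%, 50% and 50%. Only 12 bases of all member windows lay within matches of more than 1 kind of element. These are matches of letters in a window and not measured binding.

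Between P25 and P60, Aurkb, Ube2c, Cdk1 and Top2a, all genes of mitosis, fell furthest among the members, to 31.5%, 33.0%, 44.5% and 49.5% of their P25 means. Over both genotypes, 15 of 45 members were lower at P60, 5 were higher and 25 were not called, at an adjusted p under 0.05 (limma on log2 values of 12 libraries with genotype as a covariate). Of all 17594 genes tested, 19.3% were called lower and 18.3% higher in the same comparison. The share of members called lower was 33.3% and the share called higher 11.1%. The counts within each group of members, given further on, stand beside the same shares of all genes. The median log2 fold change of the members was -0.29, beside 0.0037 for all genes tested. With a minimum mean of 50 in place of 10, 30 members were tested, of which 8 were lower and 5 higher, with a median of -0.14. No share of all genes is given at that setting, and the 19.3% and 18.3% belong to the minimum mean of 10. In all 6 P60 libraries 8 members were below all 6 P25 libraries, namely Rrm2, Cdk1, Aurka, Aurkb, Birc5, Cdc20, Ube2c and Top2a, and 1 member, Smc2, was above them. Over all genes, 10.8% were separated in this way with P60 lower and 8.79% with P60 higher. Cdk1, Aurkb and Ube2c are among the 8, so that count is no support for the members either. RNA of whole tissue cannot tell fewer cells of a type apart from less RNA per cell.

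**Figure D1:**
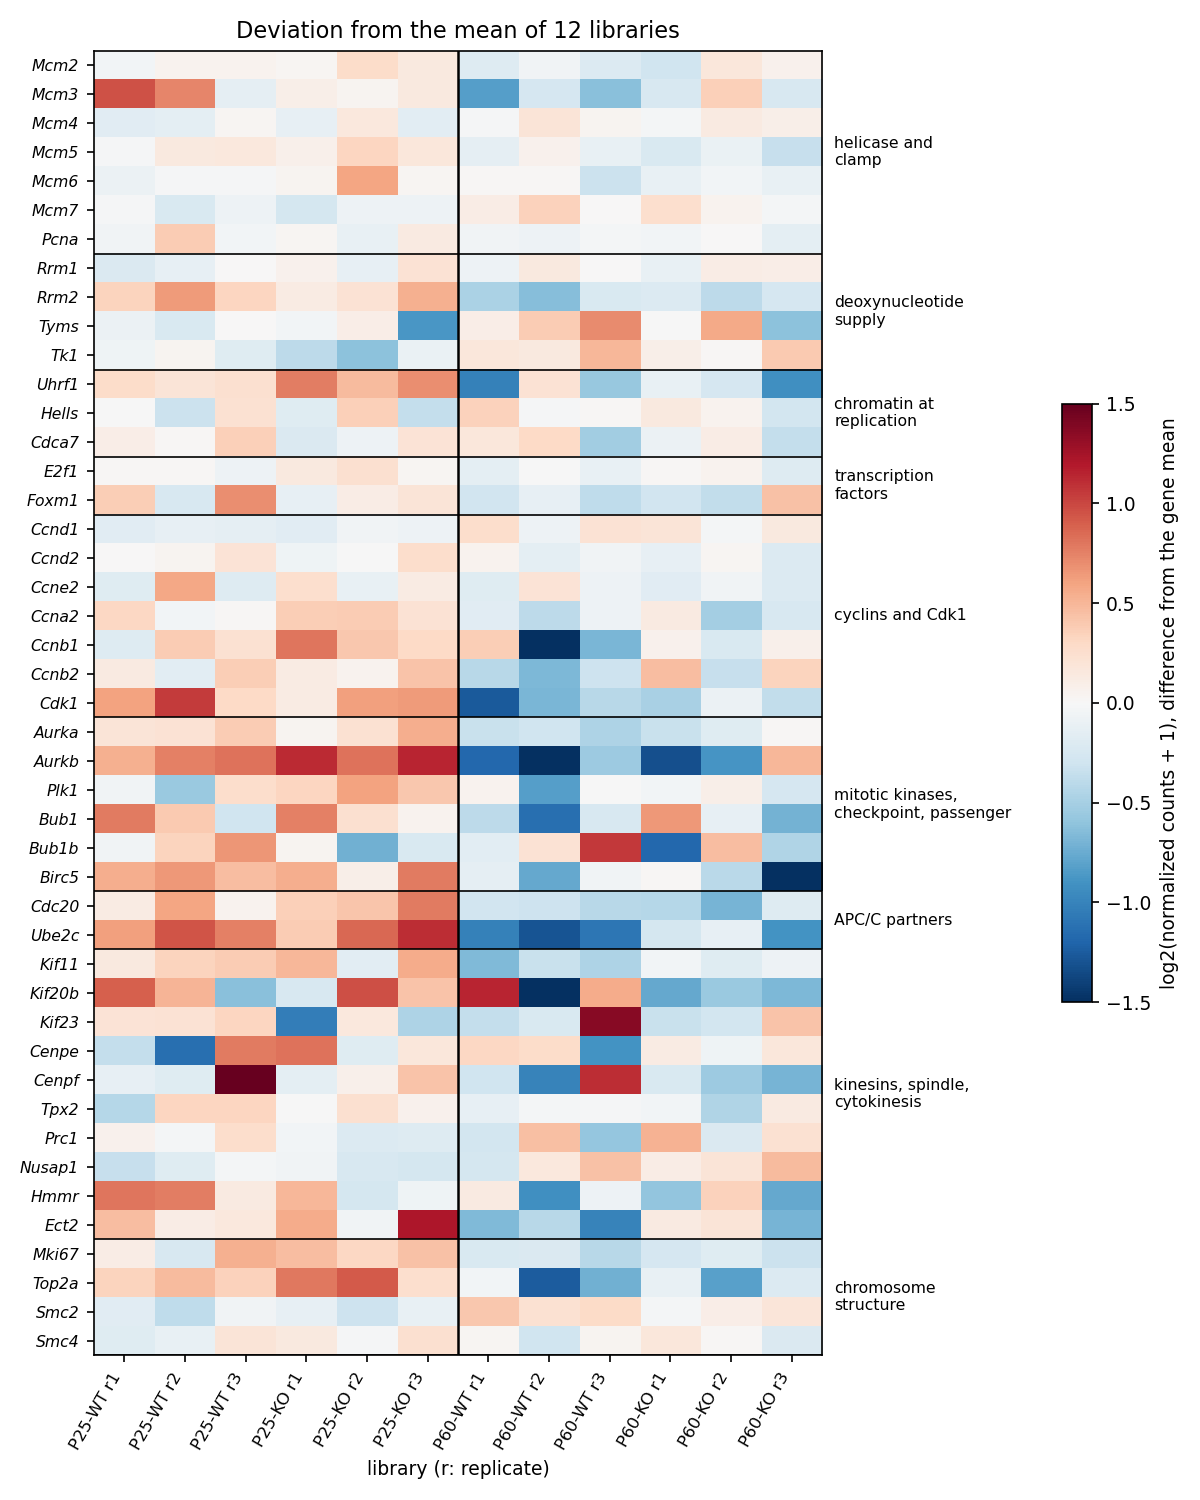
Each row is 1 of the 45 proliferation genes, grouped by role, and each column 1 of the 12 libraries. Colour gives the log2(normalized counts + 1) of the library minus the mean of the gene over the 12 libraries, with red above and blue below, and colours saturate at the ends of the bar. The rows of Ube2c, Cdk1, Rrm2 and Cdc20 are red in all P25 libraries and blue in all P60 libraries, whereas Kif20b, Cenpf and Bub1b change colour within groups.

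When the genotypes were fitted apart, which uses separate libraries, fewer members passed the test. In WT, 5 members were lower at P60 (Rrm2, Cdk1, Aurkb, Ube2c and Kif11) and 1 was higher (Smc2), with a median log2 fold change of -0.18. In the same comparison 4.99% of 17581 genes were called lower and 3.66% higher. The P60-WT means of Cdk1 (8.32), Aurkb (5.33) and Ube2c (7.26), and the P60-KO mean of Aurkb (9.47), were under 10, so these calls entered the test through their P25 libraries and the shares are no support for the members. In KO, 8 members were lower (Mcm5, Rrm2, Uhrf1, Aurkb, Cdc20, Ube2c, Mki67 and Top2a) and 0 were higher, with a median of -0.22, where 11.3% of 17596 genes were called lower and 9.37% higher. Rrm2, Aurkb and Ube2c were called in both genotypes. All 3 P60 libraries were below all 3 P25 libraries for 14 members in WT (18.4% of all genes) and 17 in KO (20.5%), and above them for 5 members in WT (17.6%) and 5 in KO (18.9%). At an unadjusted p under 0.05, 15 of 45 members differed in WT, beside 28.9% of all genes, and 18 in KO, beside 35.2%. The log2 fold change was negative in both genotypes for 32 members, positive in both for 9 and of opposite sign for 4 (Rrm1, Bub1b, Cenpe and Prc1). Across the 45 members the WT and KO values correlated at r = 0.79, and across 17359 genes tested in both at r = 0.70, a description across genes, which are not independent replicates. None of the 6 WT calls, and of the KO calls those of Uhrf1 and Mki67 alone, held in every alternative that tested them. Without P25-WT replicate 1 or P60-WT replicate 3, 0 members were called lower, and without P60-WT replicate 1 or 2, 2 and 1 were. Smc2 lost its WT call without P25-WT replicate 1 or any of the 3 P60-WT replicates. In KO, 3 were called lower without P25-KO replicate 2 or 3, and 5 without P25-KO replicate 1 or P60-KO replicate 1 or 3, and 1 was called higher without P60-KO replicate 2. Over both genotypes, 14 were lower and 3 higher without P60-WT replicate 2, 15 were lower and 4 higher without P60-KO replicate 1, and 3 were higher when P60-WT replicate 3 or P60-KO replicate 3 was left out.

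**Figure D2:**
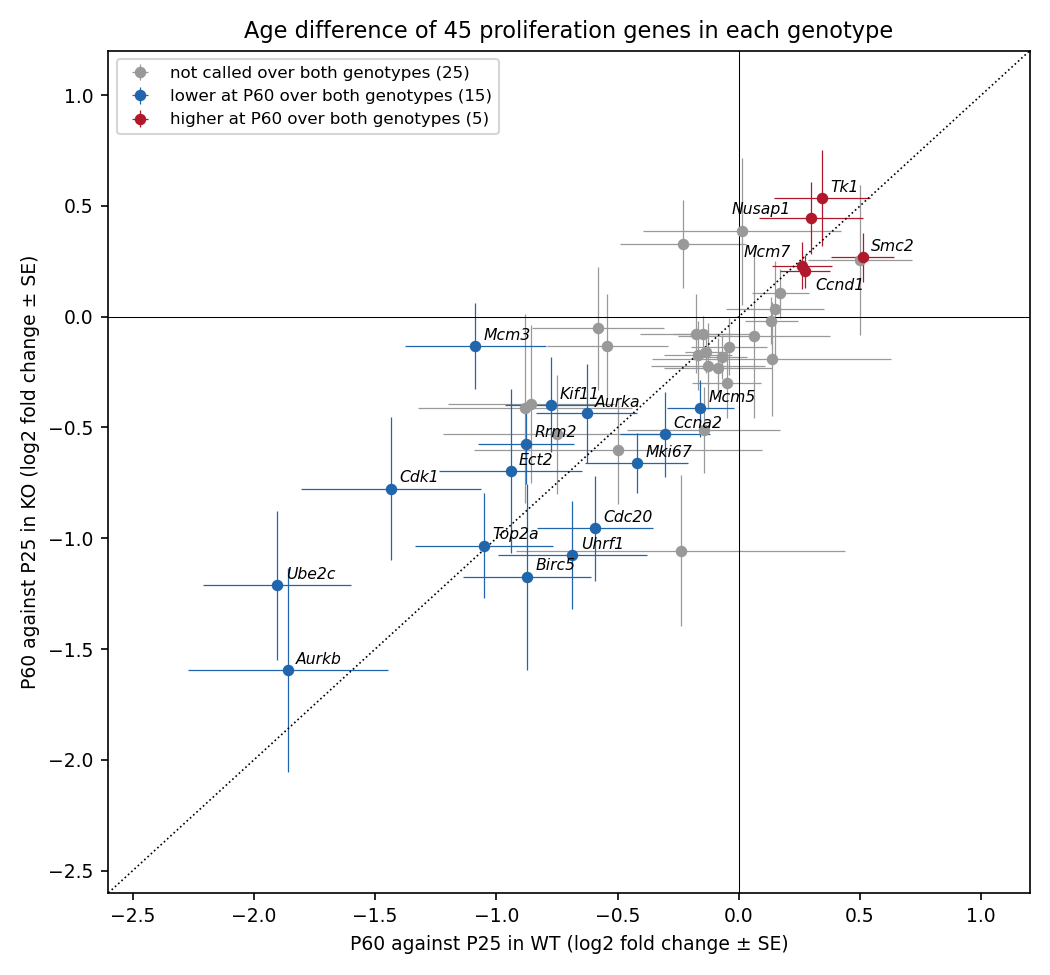
Log2 fold change of P60 against P25 in WT (horizontal axis) and in KO (vertical axis) for the 45 genes, with bars of 1 SE and the line of equal change dotted. Ube2c and Aurkb lie farthest down in both genotypes, at -1.90 and -1.86 in WT and -1.21 and -1.59 in KO, and the 5 genes higher at P60 over both genotypes lie in the upper right quadrant.

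Ube2c showed the smallest p of the list. It encodes the ubiquitin-conjugating enzyme that starts ubiquitin chains for the anaphase-promoting complex, which destroys cyclin B and securin so that sister chromatids can part. Ube2c (ENSMUSG00000001403, chr2:164769898-164778822, plus strand) was at 26.7, 33.8 and 29.4 normalized counts in P25-WT, 22.5, 31.8 and 37.9 in P25-KO, 7.94, 6.37 and 7.47 in P60-WT and 14.0, 15.6 and 8.65 in P60-KO. No P60 library reached the lowest P25 library, and the P60 mean was 33.0% of the P25 mean. Ube2c fell by 1.56 ± 0.22 on the log2 scale over both genotypes (SE, n = 6 and 6, adjusted p = 0.00013). In WT it fell by 1.90 ± 0.31 on the log2 scale (adjusted p = 0.012) and in KO it fell by 1.21 ± 0.33 (adjusted p = 0.030). Of the 31-base stretches of its annotated transcripts (words), 25.3% also occur in transcripts of other genes, 17.7% in those of the overlapping Tnnc2, so its reads may be shared out between genes. Cdc20 (ENSMUSG00000006398, chr4:118432901-118437352, minus strand), the activator that brings substrates to the same complex, was at 39.5, 55.0 and 37.6 normalized counts in P25-WT, 46.5, 48.5 and 62.5 in P25-KO, 29.5, 28.9 and 26.9 in P60-WT and 26.6, 21.9 and 31.4 in P60-KO. The groups did not overlap between ages, and the P60 mean was 57.1% of the P25 mean. With both genotypes in the fit, Cdc20 fell by 0.77 ± 0.16 on the log2 scale (SE, n = 6 and 6, adjusted p = 0.0019). In KO Cdc20 fell by 0.96 ± 0.24 (adjusted p = 0.020), and in WT, where it was not called, the value was -0.59 ± 0.24 (adjusted p = 0.14). Other genes, chiefly Gm7856, share 26.7% of its words.

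Among the mitotic kinases, the checkpoint and the chromosomal passenger complex, 3 of 6 members fell over both genotypes and none rose. Aurkb (ENSMUSG00000020897, chr11:69045647-69051664, plus strand), the kinase of the passenger complex that corrects wrong attachments of chromosomes to the spindle, was at 18.2, 21.6 and 22.5 normalized counts in P25-WT, 28.1, 22.4 and 28.4 in P25-KO, 4.91, 2.95 and 8.14 in P60-WT and 4.35, 6.24 and 17.8 in P60-KO. Every P25 library was above every P60 library, although P60-KO replicate 3 came close at 17.8. The 12 libraries gave Aurkb a log2 fold change of -1.73 ± 0.31 (SE, n = 6 and 6, adjusted p = 0.00065). In WT Aurkb fell by 1.86 ± 0.41 (adjusted p = 0.031) and in KO it fell by 1.59 ± 0.46 (adjusted p = 0.035). Birc5 (ENSMUSG00000017716, chr11:117849251-117855743, plus strand), or survivin, is the subunit that places this complex on chromosomes, and it was at 45, 48.5 and 42.6 normalized counts in P25-WT, 45, 32.5 and 53.1 in P25-KO, 27.6, 17.5 and 29.5 in P60-WT and 30.9, 22.9 and 8.56 in P60-KO. Over both genotypes Birc5 fell by 1.02 ± 0.26 on the log2 scale (SE, n = 6 and 6, adjusted p = 0.007). Aurka (ENSMUSG00000027496, chr2:172356190-172370535, minus strand), the kinase of the spindle poles, was at 46.4, 47.2 and 53.3 normalized counts in P25-WT, 41.6, 47.5 and 59.7 in P25-KO, 32.1, 32.7 and 29.1 in P60-WT and 31.8, 35.7 and 41.1 in P60-KO. Both genes were lower in all P60 libraries, and neither was called in WT or in KO alone. Aurka fell by 0.53 ± 0.14 on the log2 scale over both genotypes (SE, n = 6 and 6, adjusted p = 0.0075). The other 3 members of the group were not called: Plk1, a kinase of mitotic entry, ranged over all 12 libraries from 25.9 to 71.5, the checkpoint kinase Bub1 from 4.56 to 19.9 and the checkpoint protein gene Bub1b from 31.7 to 153. For Bub1b the ratio of the highest to the lowest library within 1 group reached 3.19.

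**Figure D3:**
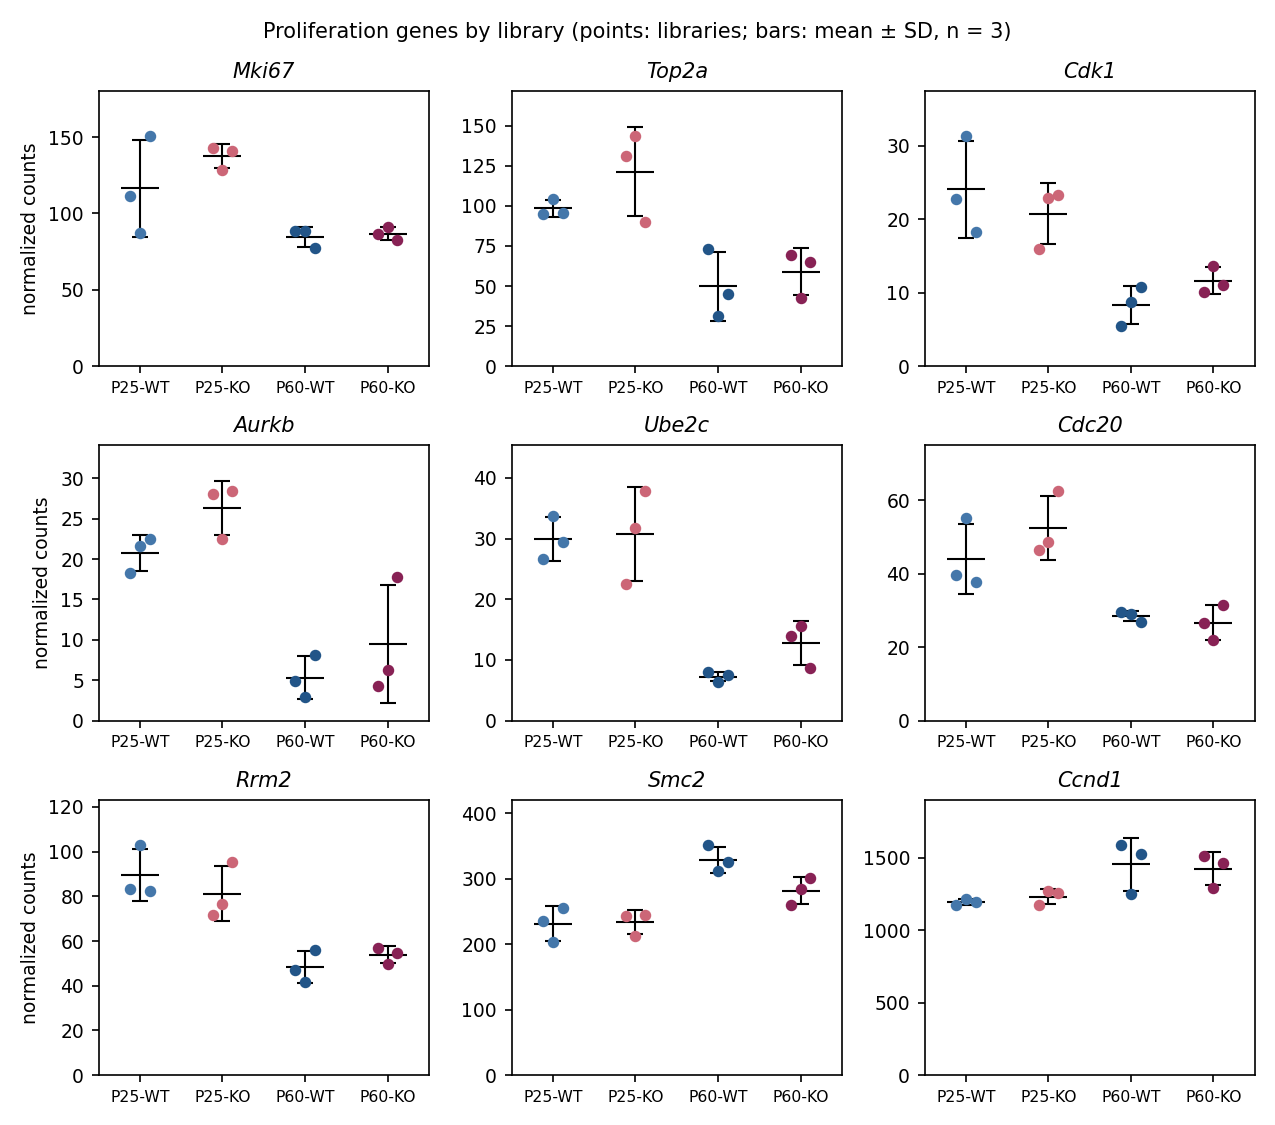
Normalized counts of 9 members in each library (points) with the group mean and 1 SD (bars, n = 3), on linear axes that start at 0. In Cdk1, Aurkb, Ube2c, Cdc20, Rrm2 and Top2a all P60 points lie below all P25 points, in Mki67 they overlap in WT only through P25-WT replicate 2, and in Smc2 all P60 points lie above all P25 points.

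Of the 7 genes for cyclins or Cdk1, 2 fell and 1 rose over both genotypes. Cdk1 (ENSMUSG00000019942, chr10:69335146-69352938, minus strand), the kinase that drives entry into mitosis, was at 22.7, 31.2 and 18.2 normalized counts in P25-WT, 16, 22.9 and 23.3 in P25-KO, 5.51, 8.75 and 10.7 in P60-WT and 10.1, 13.7 and 11.1 in P60-KO. P60 libraries were all below P25 libraries in each genotype, with a P60 mean at 44.5% of the P25 mean. With both genotypes in the fit, Cdk1 fell by 1.11 ± 0.24 on the log2 scale (SE, n = 6 and 6, adjusted p = 0.0025). In WT Cdk1 fell by 1.43 ± 0.37 (adjusted p = 0.047), and in KO the value was -0.78 ± 0.32 (adjusted p = 0.11). Ccna2 (ENSMUSG00000027715, chr3:36564865-36572150, minus strand), cyclin A2 of the replication phase and early mitosis, was at 95.9, 75.5 and 78.1 normalized counts in P25-WT, 101, 101 and 90.4 in P25-KO, 68.7, 58.7 and 73.6 in P60-WT and 85.3, 54.0 and 65.2 in P60-KO. Within each genotype the P60 libraries were all lower, but P60-KO replicate 1 exceeded 2 P25-WT libraries. The 12 libraries gave Ccna2 a log2 fold change of -0.42 ± 0.13 (SE, n = 6 and 6, adjusted p = 0.02). The B-type cyclins that partner Cdk1 were not called, with Ccnb1 at 6.63 to 37.2 and Ccnb2 at 17.2 to 38.7. Ccnd1 (ENSMUSG00000070348, chr7:144929931-144939925, minus strand), a D-type cyclin of cycle entry that neurons and glia also express, moved the other way and was at 1178, 1216 and 1199 normalized counts in P25-WT, 1172, 1272 and 1256 in P25-KO, 1587, 1249 and 1531 in P60-WT and 1512, 1296 and 1466 in P60-KO. All P60 libraries were above the P25 libraries of their own genotype. Over both genotypes Ccnd1 rose by 0.24 ± 0.06 on the log2 scale (SE, n = 6 and 6, adjusted p = 0.008). LTO1, whose transcripts share 22.3% of the words of Ccnd1, had a log2 fold change of 0.27. Ccnd2 was at 2441 ± 181 in P25-WT and 2220 ± 148 in P60-WT (SD, n = 3) and Ccne2 at 181 ± 59.6 and 166 ± 23.5, and neither was called.

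The genes of chromosome structure divided by direction. Top2a (ENSMUSG00000020914, chr11:98992943-99024189, minus strand), the topoisomerase that untangles sister chromatids and a usual marker of late cycle phases, was at 95.1, 104 and 95.8 normalized counts in P25-WT, 131, 143 and 90.0 in P25-KO, 73.1, 31.1 and 45.3 in P60-WT and 69.5, 42.2 and 65.2 in P60-KO. All P60 libraries were lower, with a P60 mean at 49.5% of the P25 mean. Top2a fell by 1.04 ± 0.19 on the log2 scale over both genotypes (SE, n = 6 and 6, adjusted p = 0.00085). In KO Top2a fell by 1.03 ± 0.24 (adjusted p = 0.014), and in WT the value of -1.05 ± 0.29 had an adjusted p of 0.053. With 1 library left out, the WT value ran from -1.37 (without P60-WT replicate 1) to -0.76. It was called in 1 of these 6 fits (adjusted p = 0.043 to 0.18). Mki67 (ENSMUSG00000031004, chr7:135689784-135716361, minus strand), which encodes Ki-67, the coat protein of mitotic chromosomes used to count dividing cells, was at 111, 87.3 and 150.5 normalized counts in P25-WT, 143, 129 and 141 in P25-KO, 88.2, 88.6 and 77.4 in P60-WT and 86.5, 91.1 and 82.6 in P60-KO. In KO the ages did not overlap, whereas in WT the lowest P25 library, at 87.3, lay within the P60 range. With both genotypes in the fit, Mki67 fell by 0.54 ± 0.12 on the log2 scale (SE, n = 6 and 6, adjusted p = 0.0036). In KO Mki67 fell by 0.66 ± 0.14 (adjusted p = 0.0091), and in WT the value was -0.42 ± 0.21 (adjusted p = 0.22), with -0.22 without P25-WT replicate 3. Condensin subunits compact chromosomes and also act between divisions. Of these, Smc2 (ENSMUSG00000028312, chr4:52439243-52488260, plus strand) was at 236, 203 and 256 normalized counts in P25-WT, 244, 213 and 245 in P25-KO, 351, 312 and 325 in P60-WT and 260.3, 284 and 302 in P60-KO. It was higher in every P60 library than in any P25 library, the sole member for which this held. The 12 libraries gave Smc2 a log2 fold change of 0.39 ± 0.08 (SE, n = 6 and 6, adjusted p = 0.0025). In WT Smc2 rose by 0.51 ± 0.13 (adjusted p = 0.044), and in KO the value was 0.27 ± 0.11 (adjusted p = 0.11). Its partner Smc4 ranged from 183 to 267 and was not called.

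Of the 10 kinesin, spindle and cytokinesis genes, 2 fell, 1 rose and 7 were not called, that is 20% lower and 10% higher beside 19.3% and 18.3% of all genes. Kif11 (ENSMUSG00000012443, chr19:37376403-37421859, plus strand), the motor that pushes spindle poles apart, was at 70.0, 80.1 and 82.9 normalized counts in P25-WT, 89.4, 56.7 and 93.2 in P25-KO, 39.7, 49.9 and 45.6 in P60-WT and 61.6, 55.5 and 59.8 in P60-KO. The WT libraries separated by age and the KO libraries did not, because P25-KO replicate 2 stood at 56.7. Over both genotypes Kif11 fell by 0.59 ± 0.14 on the log2 scale (SE, n = 6 and 6, adjusted p = 0.0056). In WT Kif11 fell by 0.77 ± 0.19 (adjusted p = 0.041), and in KO the value was -0.40 ± 0.21 (adjusted p = 0.21). With 1 library left out, the WT call was lost in every fit (adjusted p = 0.056 to 0.14). The KO value then ran from -0.62 (without P25-KO replicate 2) to -0.27. Ect2 (ENSMUSG00000027699, chr3:27097222-27153878, minus strand), the exchange factor that sets up the contractile ring, was at 32.6, 25.2 and 26.1 normalized counts in P25-WT, 34.9, 22.4 and 55.4 in P25-KO, 14.3, 17.2 and 11.1 in P60-WT and 25.7, 26.8 and 14.0 in P60-KO. In KO the ages overlapped through P25-KO replicate 2, at 22.4, whereas in WT they did not. Ect2 fell by 0.82 ± 0.24 on the log2 scale over both genotypes (SE, n = 6 and 6, adjusted p = 0.014). Nusap1 (ENSMUSG00000027306, chr2:119618298-119651244, plus strand), a microtubule-bundling protein, was at 67.6, 75.7 and 84.5 normalized counts in P25-WT, 82.8, 73.0 and 71.6 in P25-KO, 71.7, 96.6 and 117 in P60-WT and 93.0, 98.9 and 119.6 in P60-KO. It was the sole gene of this group higher at P60. With both genotypes in the fit, Nusap1 rose by 0.37 ± 0.13 on the log2 scale (SE, n = 6 and 6, adjusted p = 0.034). The call was lost without P60-WT replicate 2 or 3, P60-KO replicate 2 or 3, P25-WT replicate 1, or P25-KO replicate 2 or 3 (0.31 to 0.38, adjusted p = 0.051 to 0.087). The spread within groups was widest here: Kif20b ranged from 6.92 to 53.6 and differed 7.74-fold between libraries of P60-WT, and Cenpf stood at 137 in P25-WT replicate 3 and 96.4 in P60-WT replicate 3 against 21.7 to 59.7 elsewhere. Kif23 stood at 119 in P60-WT replicate 3 against 21.7 to 61.8 elsewhere. Cenpe, Tpx2, Prc1 and Hmmr were not called either, at 20.4 to 81.2, 51.7 to 89.2, 56.6 to 123 and 13.4 to 46.6.

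In the supply of deoxynucleotides 1 of 4 members fell and 1 rose. Rrm2 (ENSMUSG00000020649, chr12:24708241-24714146, plus strand), the small subunit of ribonucleotide reductase that is made for the replication phase, was at 83.1, 103 and 82.6 normalized counts in P25-WT, 71.8, 76.6 and 95.4 in P25-KO, 47.1, 41.8 and 56.1 in P60-WT and 57.1, 49.9 and 54.8 in P60-KO. P60 libraries were lower in both genotypes without overlap, with a P60 mean at 59.9% of the P25 mean. The 12 libraries gave Rrm2 a log2 fold change of -0.73 ± 0.13 (SE, n = 6 and 6, adjusted p = 0.00058). In WT Rrm2 fell by 0.88 ± 0.20 (adjusted p = 0.032) and in KO it fell by 0.57 ± 0.18 (adjusted p = 0.048). With 1 library left out, the WT call held in 2 of 6 fits and the KO call in 0 of 6 (KO adjusted p = 0.066 to 0.17). The large subunit gene Rrm1, which serves resting cells too, ranged from 427 to 574 and was not called. Tk1 (ENSMUSG00000025574, chr11:117815526-117826092, minus strand), the thymidine kinase of the salvage route, was at 49.4, 53.3 and 45.7 normalized counts in P25-WT, 39.2, 33.6 and 48.4 in P25-KO, 58.3, 57.6 and 73.9 in P60-WT and 55.2, 52.4 and 68.6 in P60-KO. Its P60 libraries lay above the P25 libraries of the same genotype. Over both genotypes Tk1 rose by 0.44 ± 0.14 on the log2 scale (SE, n = 6 and 6, adjusted p = 0.02). Leaving out P60-WT replicate 3 or P60-KO replicate 3 ended the call of Tk1 (0.40 and 0.38, adjusted p = 0.052 and 0.053). Tyms, the thymidylate synthase gene, ranged from 28.9 to 88.6 and was not called.

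Of the 7 helicase and clamp genes 2 fell, 1 rose and 4 were not called. The Mcm2 to Mcm7 proteins form the ring that unwinds DNA at the fork, and Pcna is the sliding clamp that keeps polymerases on DNA and takes part in repair. Over both genotypes Mcm3 and Mcm5 fell, Mcm7 rose, and Mcm2, Mcm4, Mcm6 and Pcna were not called. Mcm3 (ENSMUSG00000041859, chr1:20802968-20820312, minus strand) was at 151, 129 and 70.8 normalized counts in P25-WT, 82.5, 79.9 and 86.4 in P25-KO, 43.4, 64.8 and 49.9 in P60-WT and 65.7, 99.7 and 65.8 in P60-KO. The P25-WT libraries ranged from 70.8 to 151, and in KO the ages overlapped. Mcm3 fell by 0.61 ± 0.22 on the log2 scale over both genotypes (SE, n = 6 and 6, adjusted p = 0.039). This call was lost without any of the 3 P60-WT replicates, P25-WT replicate 1 or 2, P25-KO replicate 3, or P60-KO replicate 1 or 3 (-0.65 to -0.46, adjusted p = 0.0505 to 0.0942). Mcm5 (ENSMUSG00000005410, chr8:75109569-75128439, plus strand) was at 154, 172 and 173 normalized counts in P25-WT, 164, 194 and 174 in P25-KO, 141, 163 and 143 in P60-WT and 132, 144 and 122 in P60-KO. With both genotypes in the fit, Mcm5 fell by 0.29 ± 0.09 on the log2 scale (SE, n = 6 and 6, adjusted p = 0.022). In KO Mcm5 fell by 0.41 ± 0.13 (adjusted p = 0.048), a call that held in 1 of 6 fits with 1 library left out. In WT the ages overlapped, and the value was -0.16 (adjusted p = 0.48). Without P25-KO replicate 2 or P60-KO replicate 3 the call over both genotypes was lost (-0.24 and -0.25, adjusted p = 0.055 for both). Mcm7 (ENSMUSG00000029730, chr5:138164583-138172422, minus strand) was at 354, 307 and 339.6 normalized counts in P25-WT, 298, 341 and 341 in P25-KO, 387, 455 and 362 in P60-WT and 427, 373 and 351 in P60-KO. The 12 libraries gave Mcm7 a log2 fold change of 0.25 ± 0.08 (SE, n = 6 and 6, adjusted p = 0.023). With P60-WT replicate 2, P25-KO replicate 1 or P60-KO replicate 1 left out it was not called (0.20 to 0.22, adjusted p = 0.054 to 0.058), and 33.4% of its 31-base words occur in other genes, chiefly Gm5487. The abundant Pcna was at 1054 ± 185 in P25-WT, 991 ± 86.7 in P25-KO, 942 ± 12.5 in P60-WT and 938 ± 50.5 in P60-KO (SD, n = 3).

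Chromatin factors of replication and the cell cycle transcription factors showed 1 call among 5 genes. Uhrf1 (ENSMUSG00000001228, chr17:56303321-56323486, plus strand), which recruits the maintenance DNA methyltransferase to newly copied DNA, was at 57.0, 53.8 and 55.7 normalized counts in P25-WT, 80.8, 66.0 and 77.1 in P25-KO, 22.9, 54.8 and 31.5 in P60-WT and 43.4, 39.5 and 24.4 in P60-KO. All KO libraries at P60 were below those at P25, and in WT P60-WT replicate 2, at 54.8, overlapped the P25 range. Over both genotypes Uhrf1 fell by 0.88 ± 0.20 on the log2 scale (SE, n = 6 and 6, adjusted p = 0.0038). In KO Uhrf1 fell by 1.08 ± 0.24 (adjusted p = 0.013), and in WT the value was -0.69 ± 0.31 (adjusted p = 0.18), with -0.41 without P60-WT replicate 1. Hells and Cdca7, which form a chromatin remodeller, ranged from 63.3 to 104 and from 71.0 to 132. The factor of the replication wave, E2f1, ranged from 362 to 489, and Foxm1, that of the mitotic wave, from 52.5 to 112. None of these 4 was called.

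Levels differed widely between members once divided by transcript length. At P25 the mean normalized count per kilobase of the longest annotated transcript was 674 for Pcna, 383 for Ccnd2, 325 for Ccnd1, 157 for E2f1 and 111 for Mcm7. At the other end it was 4.31 for Bub1, 5.12 for Cdk1, 5.44 for Cenpf, 12.1 for Aurkb and 13.8 for Ube2c. At P60 Ube2c was at 4.57, Aurkb at 3.80 and Cdk1 at 2.28 on this per-kilobase scale, among the lowest of the list. Log2 fold changes are on the scale of log2(normalized counts + 1), which understates the change of such low genes. No member was at 0 in any library. The filter of a mean of at least 10 kept all 45 members in the age comparisons, but Cdk1, Aurkb, Bub1 and Ube2c had a mean under 10 in at least 1 group and passed through their other groups. More than 10% of words were shared with other genes for 13 members, of which Rrm2, Uhrf1, Ccna2, Cdc20 and Ube2c were called lower and Mcm7 and Ccnd1 higher over both genotypes, and 27 members shared under 5%.

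Genotype was compared at each age to ask whether the loss of Shank3 exons changed these genes. No tested member was called at either age. At P25, 0 of 45 members passed limma's adjusted threshold, 4 had an unadjusted p under 0.05 (1.36% of all genes), and the median log2 fold change of KO against WT was 0.019. Of all 17515 genes 0.00571% were called lower, which is Shank3 alone, at -1.06 ± 0.09 (adjusted p = 0.013). This call was lost without the trend in the fit (adjusted p = 0.41), with the replicate number as a block (0.26) and without P25-KO replicate 1 or 2 (0.25 and 0.20). The study's own DESeq2 test, also at an adjusted p under 0.05, found small sets of changed genes at both ages, more than limma called here. Uhrf1 had the smallest p of the members (0.42 ± 0.17, SE, n = 3 and 3, adjusted p = 1.0 by limma), with all KO libraries, at 66.0 to 80.8, above the WT libraries, at 53.8 to 57.0. Bub1b (-0.61 ± 0.25) and Kif23 (-0.69 ± 0.30) were next, and Plk1 (0.56 ± 0.24), named because it completes the 4, had KO libraries at 58.5 to 71.5 and WT libraries at 31.4 to 56.0. With 1 library left out, Bub1b ran from -0.79 to -0.40 and Kif23 from -1.0 (without P25-KO replicate 2) to -0.40 (without P25-KO replicate 1). The KO libraries did not overlap the WT libraries for 2 members that were lower (2.5% of all genes) and 4 that were higher (2.26%). At P60, 42 members were tested, 0 passed and 1 had an unadjusted p under 0.05 (2.5% of all genes), with a median of 0.0078. Shank3 was again the sole gene called lower, 0.00568% of 17610, at -0.99 ± 0.07 (adjusted p = 0.0022, and 0.19 without the trend). Mcm3 (0.53 ± 0.23), Smc2 (-0.22 ± 0.10) and Ccnb2 (0.61 ± 0.30) had the smallest p of the members. Without P60-KO replicate 2 the value of Mcm3 was 0.33. In 1 member all KO libraries were lower (3.63% of all genes) and in 3 all were higher (4.16%). Cdk1, Aurkb and Bub1 were not tested at P60 because their mean was under 10.

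The age difference was also tested for a difference between genotypes. In this interaction 0 of 45 members passed the limma threshold, 1 had an unadjusted p under 0.05 (1.64% of all genes), and 0% of 17594 genes were called. That member, named for this count, was Mcm3, whose age difference was -1.09 in WT and -0.13 in KO, a difference of 0.96 ± 0.37 (adjusted p = 1.0). The KO value was -0.33 without P60-KO replicate 2 and -0.03 without P60-KO replicate 1 or 3. Members called in 1 genotype and not in the other are therefore not shown to differ between genotypes.

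Other genes of the cycle were read from 4 further lists, over both genotypes, where 19.3% of all genes were lower and 18.3% higher. Of 48 tested further mitosis genes 15 (31.2%) were lower and 3 (6.25%) higher, with a median log2 fold change of -0.23. Fam83d, a spindle protein gene, fell by 1.68 ± 0.24 in WT (adjusted p = 0.0075) and fell by 1.53 ± 0.24 in KO (adjusted p = 0.0027). Anln, the contractile ring protein anillin, rose by 0.45 ± 0.11 in WT (adjusted p = 0.043) and by 0.79 ± 0.15 in KO (adjusted p = 0.0057). Of 44 tested further replication genes 5 (11.4%) were lower and 7 (15.9%) higher, with a median of -0.03, and the origin recognition gene Orc4 rose by 0.45 ± 0.07 in KO (adjusted p = 0.0036). Of 19 cyclins, kinases and E2F factors of the first phase 4 (21.1%) were lower and 3 (15.8%) higher, with a median of -0.04. E2f8, an E2F repressor of the late cycle, fell by 0.97 ± 0.29 in KO (adjusted p = 0.039). Of 14 tested cell cycle brakes 2 (14.3%) were lower and 4 (28.6%) higher, with a median of -0.07, and Rbl2, the p130 pocket protein of resting cells, rose by 0.40 ± 0.09 in WT (adjusted p = 0.033) and by 0.39 ± 0.07 in KO (adjusted p = 0.0052). These counts describe the lists and are not a test between them.

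**Figure D4:**
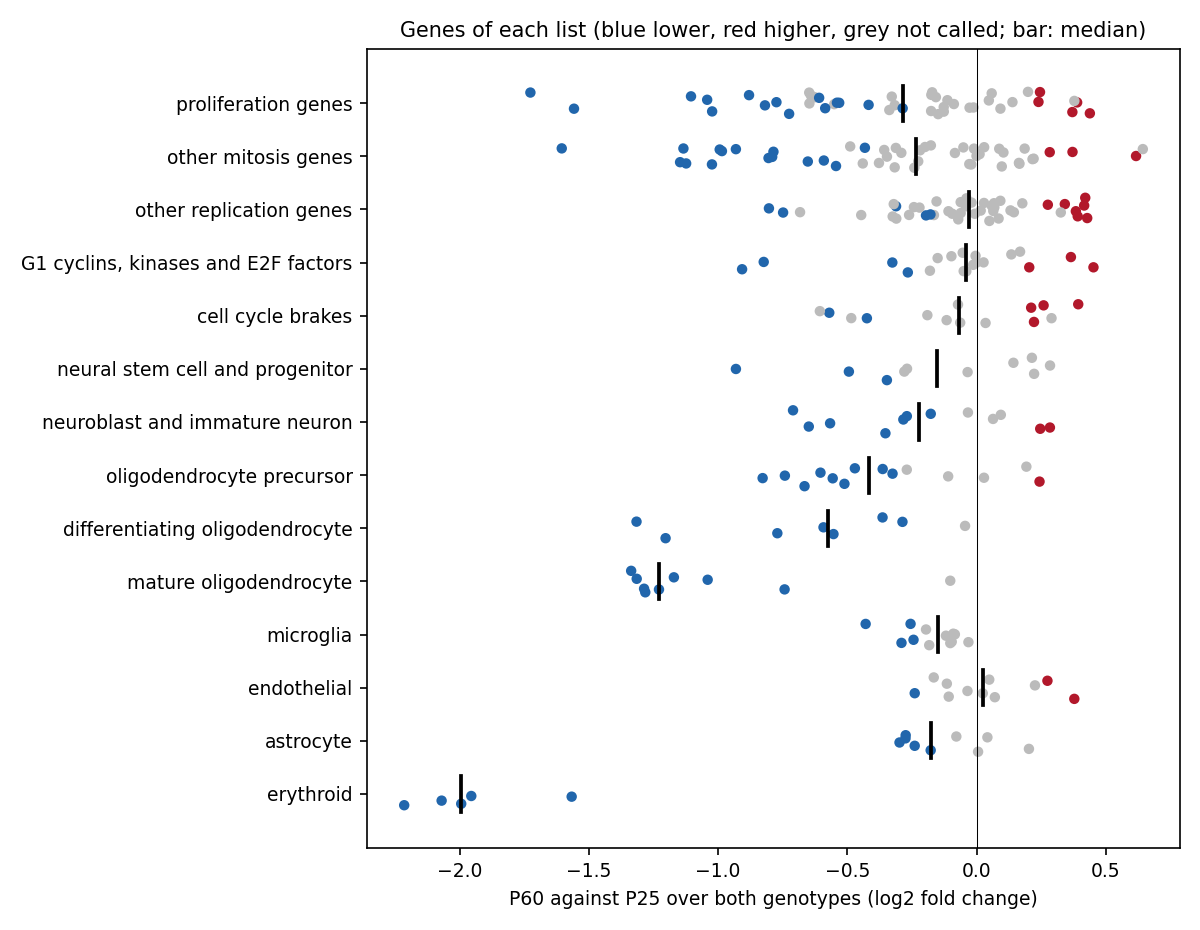
Log2 fold change of P60 against P25 over both genotypes for each tested gene (points) of the 45 members, 4 further cell cycle lists and 9 cell type lists, with the median of each list as a black bar, blue for lower, red for higher and grey for not called. The member list has its median at -0.29 and the further mitosis list at -0.23, and the lists of mature oligodendrocytes, at -1.23, and of erythroid cells, at -1.99, lie farthest left.

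Markers of dividing and other cell types were read in the same comparison over both genotypes, in which 19.3% of all genes were lower and 18.3% higher. Of 14 oligodendrocyte precursor genes 9 were lower and 1 higher, with a median of -0.42, and their summed normalized counts were 32417 to 37954 in the P25 libraries and 28793 to 31574 in the P60 libraries. Olig1 fell by 0.78 ± 0.07 in WT and fell by 0.70 ± 0.05 in KO (adjusted p = 0.00058 and 5.8e-05). Of 8 genes of differentiating oligodendrocytes 7 were lower and none higher, with a median of -0.57. Mature oligodendrocyte genes were lower for 8 of 9, with a median of -1.23, and summed to 410422 to 534275 at P25 and 201414 to 228563 at P60. Of 10 tested neural stem cell and progenitor genes 3 were lower and none higher. Their sum of 11 genes, to which Gfap gave the largest share, was 10450 to 12957 at P25 and 8269 to 9704 at P60. Of 12 genes of neuroblasts and immature neurons 7 were lower and 2 higher, with sums of 6925 to 7743 at P25 and 6079 to 7287 at P60, which overlap. Microglial genes were lower for 4 of 12 and endothelial genes lower for 1 and higher for 2 of 11, and the sums of both lists overlapped between ages. The endothelial median was 0.024. Of 7 genes of ependyma and choroid plexus none was lower and 1 higher, with a median of -0.11. Astrocyte genes were lower for 5 of 9, and their sums of 131367 to 147771 at P25 and 112552 to 125125 at P60 did not overlap. Erythroid genes were lower for 5 of 5, with a median of -1.99 and sums of 20503 to 42983 at P25 and 5894 to 7305 at P60. No listed marker was at 0 in every library. The part of any of these cell types in the fall of the members was not tested.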

How the data were processed

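Forebrain RNA of 12 mice was sequenced from libraries made with the TruSeq RNA kit v2, and whether counting used strand was not given in the sources used here. The authors estimated transcript abundance with Salmon 1.1.0 with correction for GC bias, imported it with tximport and scaled it with DESeq2 (1.26.0 with R 3.6.2 in the submitters' processing notes, which name GRCm38). The deposited values are a signal per gene, normalized counts that are not whole numbers and were scaled over all 12 libraries together. Depth is therefore unknown, no count model was run, and library-size errors of the original reads cannot be seen. The smallest row sum is 51.1, and 317 genes are at 0 in at least 1 library. Identifiers were matched to GENCODE M21 on GRCm38 (19252 of 19268), which also gave the positions.

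Groups and replicate numbers came from the sample titles. Tests were two-sided and came from limma (version 3.58.1, R 4.3.3), with lmFit and a trended eBayes on log2(value + 1), over genes with a mean of at least 10 in the libraries fitted, with Benjamini-Hochberg adjustment over all genes tested and a threshold of 0.05. Only the groups compared entered a fit, except for the 12-library fits of age and of the interaction. The WT, KO and combined age comparisons are not independent, since the combined one uses the libraries of both. Log2 fold changes are named for members called in an age comparison, and in the genotype comparisons for Shank3 and the 3 members with the smallest p. Of other lists, at most 3 genes called within a genotype were named. Members and lists were chosen with earlier results of these data known. Cdkn2a was not analysed here. Same-numbered libraries did not deviate together (correlations of -0.07 to 0.17, and in no comparison above 0.1 for every pair), so replicate numbers were not used as pairs. Alternatives changed the pseudocount (0.5 and 5), the minimum mean (none and 50), the scaling, the trend, the replicate block, the libraries fitted and single libraries. Sharing of transcripts was measured over words of 31 bases in GENCODE M21.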

Additional observations from a re-analysis of the deposited data

How the results depend on the processing

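Depth is unknown and 3 libraries stand in each group, which limits every count. No called value changed sign. The member median of the genotype comparison at P25 ran from 0.018 to 0.032 over the other settings and from 0.014 to 0.080 with 1 library left out. That at P60, near 0, ran from -0.0075 to 0.010 over the other settings and from -0.019 to 0.042 with 1 library left out, and that of the interaction from -0.082 to -0.030 and from -0.063 to 0.033. A minimum mean of 50, which left fewer members to test, gave 3 members lower in WT (median -0.11), 5 in KO (median -0.15) and 8 over both genotypes (median -0.14). No share of all genes is given for this setting. Without the trend 1 was lower and 0 higher in WT and 5 were lower in KO. All 12 libraries in one fit gave 8 lower in WT, and scaling to the same total gave 1 higher in KO. With the replicate number as a block, although the numbers do not pair the libraries, 5 were lower in KO, and no other count of members moved by more than 1.5 times. The cause of these shifts, other than the number tested, was not tested. Leaving out 1 library gave 0 to 4 lower and 0 to 1 higher in WT (median -0.30 to -0.16), 3 to 6 lower and 0 to 1 higher in KO (median -0.32 to -0.22) and 14 to 16 lower and 3 to 5 higher over both genotypes (median -0.30 to -0.22). Over both genotypes 13 of the 15 lower and 2 of the 5 higher members kept their call in every alternative that tested them. The genotype comparisons and the interaction called 0 members in all alternatives. Shank3 at P25 was not called without the trend (adjusted p = 0.41), with the block (0.26) or without P25-KO replicate 1 or 2 (0.25 and 0.20), and at P60 without the trend (0.19), with log2 fold changes of -1.06 to -0.99. For single genes, the other settings gave a call that the reported fit lacked in 7 instances and ended a call in 22, and leaving out 1 library did so in 5 and in 74.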
